A study of Mus musculus with 24 samples.

Results

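The genes described are 37 genes of the germline: genes of the piRNA pathway, of meiotic chromosomes and recombination, and of germ cell transcription and RNA binding. They were taken by name from the 25965 entries of the deposited expression table, and all 37 were present. Male C57/Bl6 mouse embryonic stem cells (mESCs), cultured in 2i and then differentiated in serum medium without LIF, received a short hairpin on day 2 and were selected with puromycin from day 3. The hairpin targeted *Smarcc1* (Smarcc1.6 or Smarcc1.7) or *Smarca4* (Smarca4.4 or Smarca4.6), which encode subunits of the BAF chromatin remodelling complex, or was the nonsilencing control (Nons). mRNA was sequenced on days 4, 5, 6 and 7 with 1 library per hairpin and day, which gave 8 *Smarcc1* knockdown, 8 *Smarca4* knockdown and 4 Nons libraries, the 4 days of a single Nons culture series. The cultures were bulk populations of transduced cells of the same line, and the values are log2 rpm, reads of a gene scaled to library size, given here as rpm unless log2 is named.

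Germline genes are silent in most somatic cells. In mESCs many of them are kept low by DNA methylation of CpG-rich promoters and by a Polycomb complex, PRC1.6, whose subunits Mga and Max bind the E-box CACGTG and whose subunit E2f6 binds E2F sites, and 2i medium is known to lower DNA methylation. In the germline itself, retinoic acid induces *Stra8* at meiotic entry, meiotic cohesins and the synaptonemal complex organise the chromosome axes on which recombination proceeds, and piRNAs guide PIWI proteins to transposons.

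Library totals ranged from 6829596 to 27472885 reads, with Smarca4.4 day 5 at the low end. *Smarcc1* stood at 23.7% to 60.1% of same-day Nons in its 8 knockdown libraries and *Smarca4* at 21.6% to 55.3% in its 8. Of 5 pluripotency markers 4 were called higher in *Smarcc1* knockdown and 3 in *Smarca4* knockdown, and the list summed to 359 to 2050 rpm in Nons, 508 to 2170 rpm in *Smarcc1* and 326 to 2130 rpm in *Smarca4* knockdown. Of 4 tested markers of early differentiation, *Fgf5* (log2 difference -1.31 and -1.10) and *Otx2* were called lower and *Gata4* higher in both. Of all 13296 tested genes, 7.54% and 4.75% were called higher in *Smarcc1* and *Smarca4* knockdown, and 3.08% and 1.96% lower. Of 10 markers of gonadal somatic cells, *Hsd3b1* and *Fshr* had no read in any library, and the whole list summed to 2.23 to 12.1 rpm over the 20 libraries. The 7 measured genes of the 2-cell-like state summed to 32.4 to 48.4 rpm in Nons, 36.3 to 78.7 rpm in *Smarcc1* knockdown and 34.4 to 104 rpm in *Smarca4* knockdown. The part of these cell states in the differences below was not tested, and in bulk cultures fewer cells of a type and less RNA per cell cannot be told apart.

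Most of the germline genes that could be tested were higher after either knockdown, and none was called lower (none at an unadjusted p under 0.05 or by limma-voom either). Of the 37 genes, 31 passed the filter on low values, a mean log2 rpm of at least 0 over all libraries. On the Nons libraries alone 30 would have passed, all of these but *Tdrd9*. In *Smarcc1* knockdown 19 of the 31 were called higher at an adjusted p under 0.05, where 7.54% of all 13296 tested genes were called higher and 3.08% lower. In *Smarca4* knockdown 16 of the 31 were called higher, against 4.75% of all tested genes higher and 1.96% lower. The germline genes were chosen with earlier results of these data known, so these shares do not test them as a set. The median log2 difference of the 31 genes was 0.74 in *Smarcc1* knockdown and 0.59 in *Smarca4* knockdown, against 0.06 over all tested genes in each. The call was shared by both knockdowns for 15 genes, namely *Ddx4*, *Mael*, *Stag3*, *Smc1b*, *Tex14*, *Tex15*, *Tdrd9*, *Tdrd12*, *Piwil2*, *Hormad1*, *Hormad2*, *Stra8*, *Taf7l*, *Fkbp6* and *Sohlh2*, and both comparisons use the same 4 Nons libraries. *Dazl*, *Sycp1*, *Rec8* and *Brdt* were called in *Smarcc1* knockdown alone and *Mov10l1* in *Smarca4* knockdown alone. With the lower filter of -3, which all 37 genes passed, 21 and 17 were called higher, and so were 9.34% and 4.89% of all genes that passed it. With each series of libraries (1 hairpin, or the single Nons series, over its days) as a replicate block, 13 and 8 of the 31 genes were called higher, against 3.41% and 1.38% of all tested genes.

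The differences were larger on days 6 and 7 than on days 4 and 5. On day 4 the median log2 difference of the 31 genes from same-day Nons was 0.49 and 0.31 in Smarcc1.6 and Smarcc1.7 and 0.26 and 0.35 in Smarca4.4 and Smarca4.6. On day 7 it was 1.32 and 1.44 in the *Smarcc1* hairpins and 1.11 and 1.43 in the *Smarca4* hairpins, while the median of all tested genes stayed between 0.06 and 0.15. On that day 30 and 31 of the 31 genes lay above Nons with the *Smarcc1* hairpins and 29 and 31 with the *Smarca4* hairpins. The values of each day rest on a single Nons library. With day 7 left out of the average, 8 of the 31 genes were called higher in *Smarcc1* knockdown and 7 in *Smarca4* knockdown, where the share of all tested genes also fell, to 3.23% and 1.81%. With day 6 left out 12 and 8 were, against 3.67% and 1.68% of all tested genes. In *Smarca4* knockdown 5 were called without Smarca4.6 and 9 without Smarca4.4, against 1.52% and 2.09% of all tested genes.

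**Figure D1:**
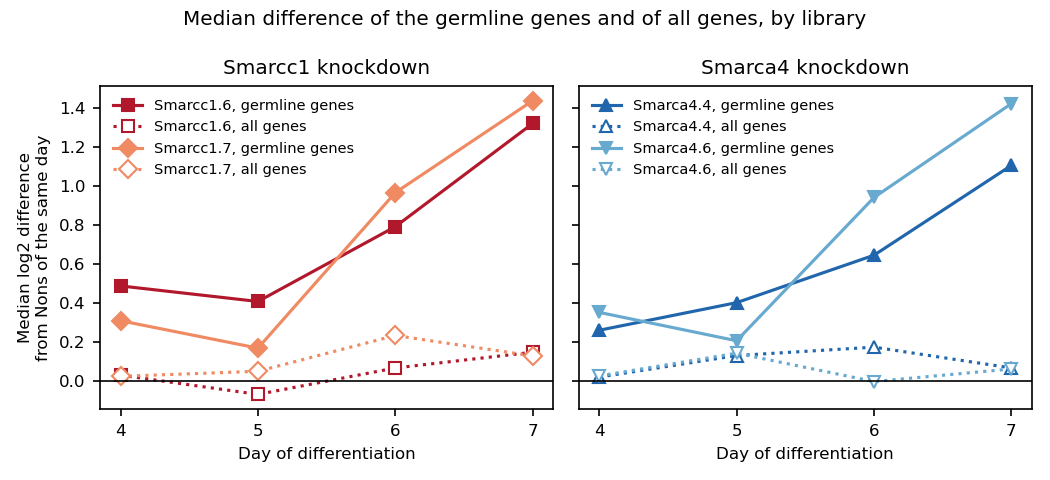
Median log2 difference from the Nons library of the same day (vertical axis) against the day of differentiation (horizontal axis), for the 31 tested germline genes (filled symbols, solid lines) and all 13296 tested genes (open symbols, dotted lines) in each knockdown library. The germline medians reach 1.11 to 1.44 on day 7 while those of all genes are at or under 0.15 on that day.

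**Figure D2:**
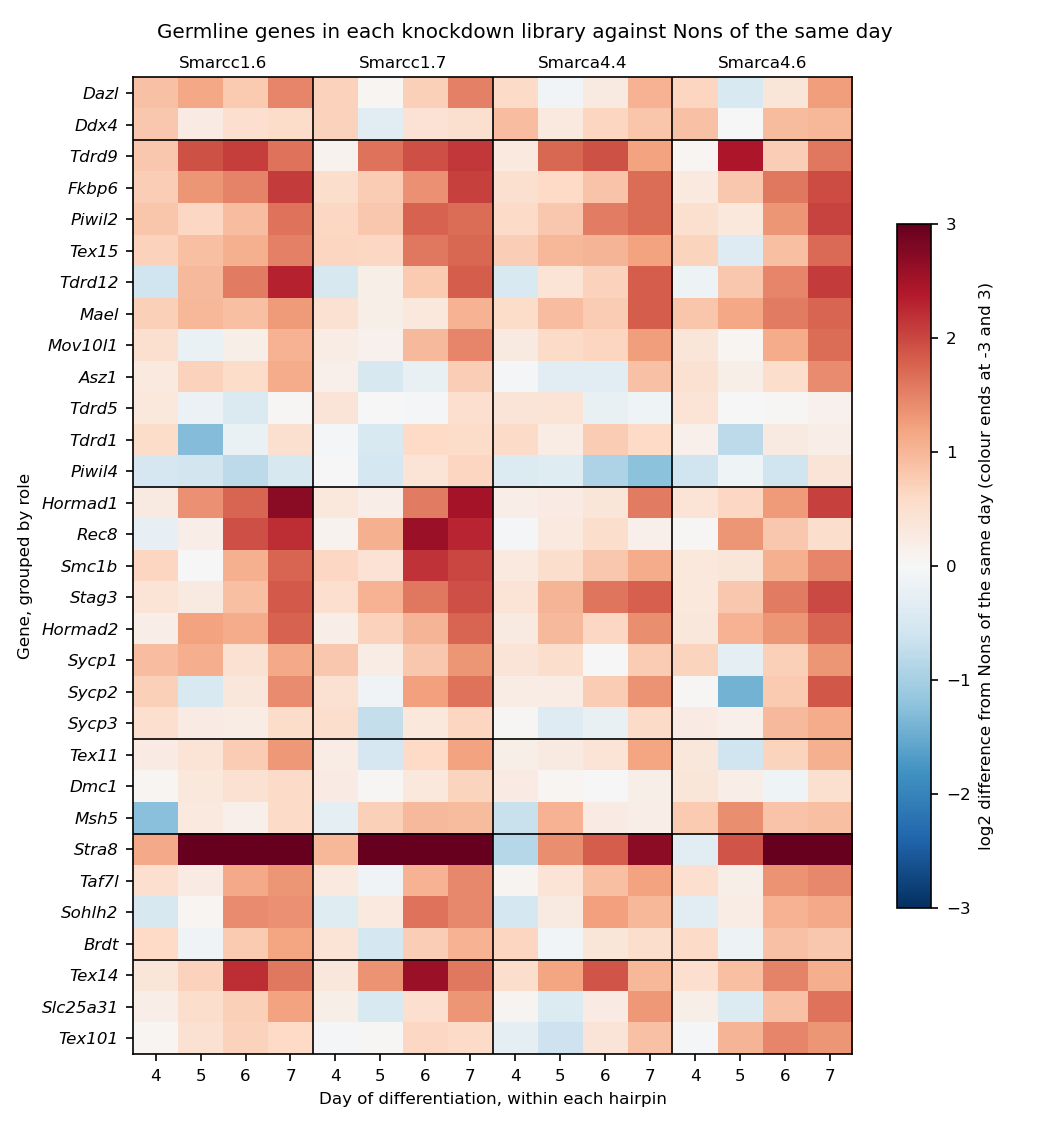
Log2 difference of each of the 31 tested germline genes from Nons of the same day in the 16 knockdown libraries, by hairpin and day, with genes grouped by role (black lines: germ cell RNA binding, piRNA pathway, chromosome axis and cohesin, recombination, transcription, other). Red is above and blue below Nons, the colour scale ends at -3 and 3, and on day 7 at least 29 of the 31 genes are above it with each hairpin.

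Promoter sequences of the members were examined, both of those called and of those not called. RefSeq promoter windows of 300 bases, 250 before and 50 after the start site in GRCm38.p6, were at hand for 32 of the 37 genes, and the most upstream start was taken for genes with several. The E-box CACGTG was present in 13 of the 32 windows (40.6%), against 7.24% of the windows of all 27025 genes with an entry. The E2F core GCGGGA, or TCCCGC on the other strand, was present in 13 of 32 (40.6%), against 20.1% of all windows, and both motifs in 7 (21.9%) against 2.05%. The members' windows also held more CpG dinucleotides, with a median of 18.5 against 7.0 in all windows, and the part of CpG content in the share of motifs was not tested. Among the 13 genes with a window that were called in both knockdowns, 7 held CACGTG, and among the other 19, 6 did. The other 19 include *Msh4*, *Mei1*, *Figla* and *Nobox*, which did not pass the filter, could not be called and lacked CACGTG. They also include genes called in 1 knockdown alone. The windows of 5 genes called in both knockdowns, those with the highest mean values and a window, are shown with these motifs in capitals, the matches did not overlap, and *Stra8* was added after its values were seen:
Ddx4, chr13:112652261-112652560, minus strand: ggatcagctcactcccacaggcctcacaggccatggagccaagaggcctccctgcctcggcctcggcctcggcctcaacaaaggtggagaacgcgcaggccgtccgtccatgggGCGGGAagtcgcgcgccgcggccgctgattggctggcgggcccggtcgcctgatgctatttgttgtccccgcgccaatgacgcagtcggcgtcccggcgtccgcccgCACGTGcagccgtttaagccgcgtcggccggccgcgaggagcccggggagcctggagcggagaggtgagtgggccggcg
Mael, chr1:166238695-166238994, minus strand: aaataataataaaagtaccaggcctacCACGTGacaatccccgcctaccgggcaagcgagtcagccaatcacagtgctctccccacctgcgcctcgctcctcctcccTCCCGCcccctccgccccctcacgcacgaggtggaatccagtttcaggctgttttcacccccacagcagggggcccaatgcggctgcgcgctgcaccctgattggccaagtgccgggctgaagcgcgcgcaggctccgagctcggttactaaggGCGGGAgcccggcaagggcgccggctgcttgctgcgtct
Tdrd12, chr7:35537695-35537994, minus strand: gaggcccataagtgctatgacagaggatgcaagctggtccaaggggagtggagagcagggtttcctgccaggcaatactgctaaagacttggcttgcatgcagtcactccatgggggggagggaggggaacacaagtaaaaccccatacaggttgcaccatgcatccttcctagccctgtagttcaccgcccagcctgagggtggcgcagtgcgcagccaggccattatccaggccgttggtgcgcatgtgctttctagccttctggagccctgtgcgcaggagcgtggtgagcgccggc
Stag3, chr5:138280259-138280558, plus strand: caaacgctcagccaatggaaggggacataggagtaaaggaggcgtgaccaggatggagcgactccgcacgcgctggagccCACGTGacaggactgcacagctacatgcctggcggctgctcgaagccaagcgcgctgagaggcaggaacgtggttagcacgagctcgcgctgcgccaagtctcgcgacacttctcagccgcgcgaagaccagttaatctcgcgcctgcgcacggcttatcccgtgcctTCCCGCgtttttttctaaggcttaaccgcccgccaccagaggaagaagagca
Hormad1, chr3:95559427-95559726, plus strand: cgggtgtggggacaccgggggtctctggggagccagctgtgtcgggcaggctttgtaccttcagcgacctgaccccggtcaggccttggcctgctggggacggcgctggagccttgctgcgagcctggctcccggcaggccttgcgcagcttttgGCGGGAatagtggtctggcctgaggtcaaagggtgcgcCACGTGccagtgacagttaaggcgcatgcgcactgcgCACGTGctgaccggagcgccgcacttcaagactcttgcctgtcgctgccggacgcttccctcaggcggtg
Stra8, chr6:34920698-34920997, plus strand: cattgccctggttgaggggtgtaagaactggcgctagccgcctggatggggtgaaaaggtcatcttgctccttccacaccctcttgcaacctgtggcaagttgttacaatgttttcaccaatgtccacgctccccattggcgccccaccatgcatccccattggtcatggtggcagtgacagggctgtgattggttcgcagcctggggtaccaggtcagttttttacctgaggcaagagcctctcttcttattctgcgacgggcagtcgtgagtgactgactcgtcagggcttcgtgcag
The *Hormad1* window held CACGTG at 2 places and GCGGGA at 1, and those of *Ddx4* and *Stag3* held 1 match to each motif. The *Mael* window held 1 CACGTG and 2 E2F cores. The windows of *Tdrd12* and *Stra8* held neither and had 9 and 10 CpG, against 38 in *Ddx4*. A match describes the letters of the window and not the binding of a factor. The start used by RefSeq lies 269 bases inside the deposited gene for *Stag3*, 316 for *Tdrd5*, 785 for *Stra8*, 1247 for *Msh4* and 12480 for *Mei1*. The windows of these genes, with the *Stag3* matches shown above, therefore lie wholly inside the deposited genes.

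*Stra8*, the retinoic acid-induced regulator of meiotic entry (chromosome 6, 34920163 to 34939342, plus strand, in mm10 as for the genes below), had the largest difference of the 31 genes in both knockdowns. In Nons, *Stra8* was measured at 12.8, 19.0, 8.84 and 5.06 rpm on days 4, 5, 6 and 7. *Smarcc1* knockdown gave 28.0, 307, 310.5 and 186 rpm with Smarcc1.6 and 25.3, 150.4, 174 and 132 rpm with Smarcc1.7. *Smarca4* knockdown gave 7.09, 49.8, 31.0 and 32.4 rpm with Smarca4.4 and 10.1, 69.6, 76.0 and 51.4 rpm with Smarca4.6. All 8 *Smarcc1* knockdown libraries lay above same-day Nons, by 1.98 to 36.7 times, whereas both *Smarca4* hairpins lay below Nons on day 4 and above it on days 5 to 7. The log2 difference from Nons was 3.56 (SE 0.277, adjusted p = 7.79e-06) in *Smarcc1* knockdown and 1.63 (SE 0.277, adjusted p = 0.00403) in *Smarca4* knockdown. In *Smarca4* knockdown it missed the threshold without day 7 (1.16, adjusted p = 0.0818) or without Smarca4.6 (1.26, adjusted p = 0.0827). In Nons the log2 difference of *Stra8* between day 7 and day 4 was -1.34, whereas in the 4 knockdown series it was above 0 and reached 2.73. The slope of the difference from Nons over the days, in log2 per day, was 1.29 in *Smarcc1* knockdown (SE 0.248, adjusted p = 0.033) and 1.17 in *Smarca4* knockdown (SE 0.248, adjusted p = 0.118). Of all tested genes, 0.865% and 0.113% had a slope called higher in these tests, and 2 and 0 of the 31 germline genes did, *Stra8* and *Sohlh2* (1 and 0 by limma-voom). At an unadjusted p under 0.05, 14 and 12 of the 31 passed, and 9.62% and 5.2% of all tested genes did in either direction. The 2 slope calls were lost when any 1 of the 4 hairpins was left out, and the share of all tested genes called higher fell as well.

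**Figure D3:**
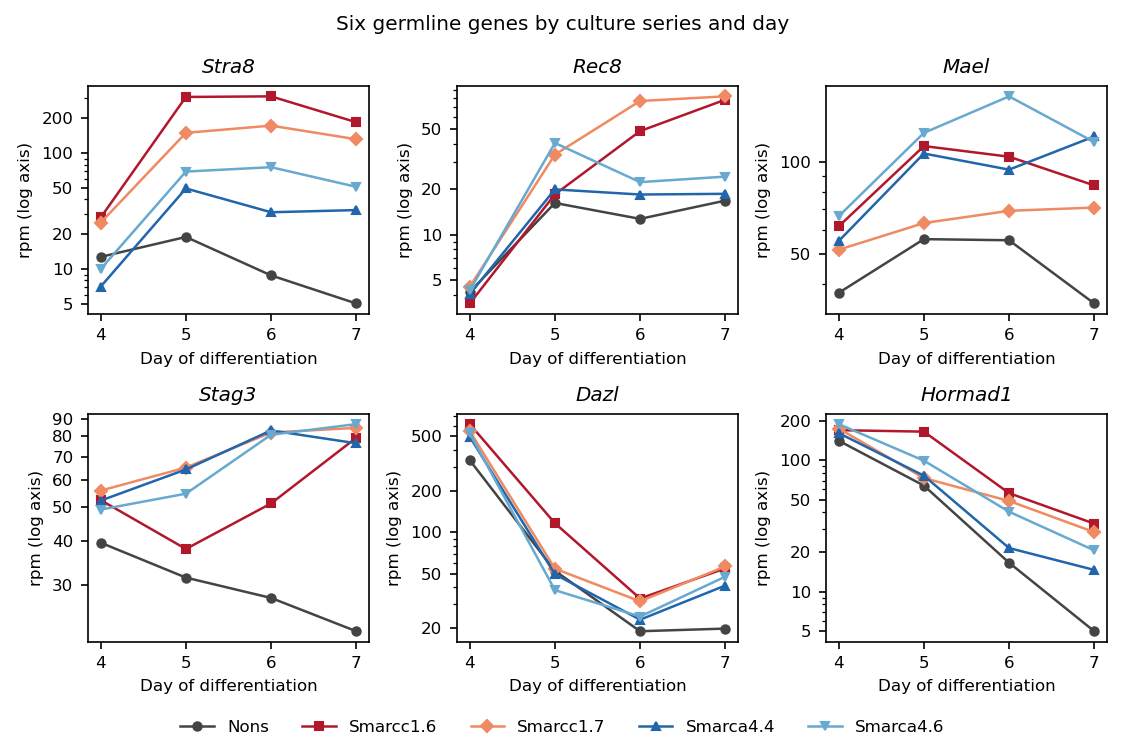
Values of *Stra8*, *Rec8*, *Mael*, *Stag3*, *Dazl* and *Hormad1* in rpm (log axis) against the day of differentiation, 1 point per library, with lines joining the 4 days of each hairpin or of Nons. *Stra8* is at 132 rpm or more with the *Smarcc1* hairpins and at 5.06 rpm in Nons on day 7, and *Dazl* and *Hormad1* are lower on day 7 than on day 4 in each of the 5 series.

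The other regulators of germ cell transcription differed less. *Sohlh2*, a helix-loop-helix factor of early spermatogonia and oocytes (chromosome 3, 55182028 to 55209957), crossed over during the time course. On days 4, 5, 6 and 7, Nons gave 89.2, 39.6, 14.6 and 19.7 rpm. With Smarcc1.6 it was at 63.8, 41.5, 39.2 and 51.4 rpm and with Smarcc1.7 at 69.3, 48.5, 45.1 and 53.5 rpm. With Smarca4.4 it was at 62.1, 48.2, 34.1 and 39.0 rpm and with Smarca4.6 at 70.7, 46.3, 29.9 and 43.6 rpm. On day 4 all 4 knockdown libraries lay below Nons, and on days 5 to 7 all 12 lay above it. Averaged over days, the log2 difference was 0.67 (SE 0.105, adjusted p = 0.00126) and 0.50 (SE 0.105, adjusted p = 0.013) in *Smarcc1* and *Smarca4* knockdown. The slope of the difference was 0.69 per day in *Smarcc1* knockdown (SE 0.0942, adjusted p = 0.00553) and 0.54 in *Smarca4* knockdown (SE 0.0942, adjusted p = 0.0551). The slope call of *Sohlh2* in *Smarcc1* knockdown was lost when any 1 hairpin was left out. *Taf7l*, a germ cell relative of a TFIID subunit, ranged from 10.8 to 21.7 rpm in Nons, 17.2 to 41.4 rpm in *Smarcc1* knockdown and 14.7 to 41.6 rpm in *Smarca4* knockdown, and its log2 difference was 0.74 (SE 0.138, adjusted p = 0.00416) and 0.76 (SE 0.138, adjusted p = 0.00588). *Brdt*, the testis bromodomain protein, was low throughout, at 3.56 to 4.96 rpm in Nons and up to 11.2 rpm after knockdown, and its log2 difference was 0.51 (SE 0.151, adjusted p = 0.0489) in *Smarcc1* and 0.44 (SE 0.151, adjusted p = 0.111) in *Smarca4* knockdown. Calls missed the threshold in *Smarcc1* knockdown for *Taf7l* without day 7 (adjusted p = 0.0927), *Sohlh2* without day 6 or day 7 (adjusted p = 0.0711 to 0.0998) and *Brdt* without Smarcc1.6, Smarcc1.7, Smarca4.4, Smarca4.6, day 4, day 6 or day 7 (adjusted p = 0.0853 to 0.47), and in *Smarca4* knockdown for *Taf7l* without Smarca4.6, day 6 or day 7 (adjusted p = 0.0572 to 0.0878) and *Sohlh2* without Smarca4.4, Smarca4.6, day 6 or day 7 (adjusted p = 0.0887 to 0.302). With the replicate block the calls of *Brdt* (adjusted p = 0.215) in *Smarcc1* knockdown and of *Taf7l* (adjusted p = 0.0502) and *Sohlh2* (adjusted p = 0.0954) in *Smarca4* knockdown were lost. The *Brdt* call was also lost without a filter, with median centring, with quantile normalization and in an additive model. The additive model ended the *Sohlh2* call in *Smarca4* knockdown as well.

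Meiotic cohesins and chromosome axis proteins were mostly higher: of the 8 genes of this role, 6 were called higher in *Smarcc1* knockdown and 4 in *Smarca4* knockdown. Of all tested genes 7.54% and 4.75% were called higher in these comparisons. *Stag3*, a cohesin subunit of meiotic cells (chromosome 5, 138280240 to 138312393), was called in both. The Nons series held 39.6, 31.4, 27.5 and 22.1 rpm of *Stag3* from day 4 to day 7. Smarcc1.6 gave 52.5, 38.0, 51.4 and 79.2 rpm and Smarcc1.7 55.9, 65.1, 82.1 and 84.6 rpm. Smarca4.4 gave 52.3, 64.3, 83.2 and 76.4 rpm and Smarca4.6 49.3, 54.8, 80.9 and 86.8 rpm. Nons was the lowest library on each day, and its values were lower on each later day, while all 4 knockdown series ended higher than they began. The log2 difference was 1.06 (SE 0.159, adjusted p = 0.000954) in *Smarcc1* knockdown and 1.18 (SE 0.159, adjusted p = 0.000848) in *Smarca4* knockdown, and both calls held in each of the 19 alternatives run. *Smc1b*, the meiotic form of a cohesin core subunit, was at 20.3 to 34.9 rpm in Nons, 27.3 to 91.4 rpm in *Smarcc1* knockdown and 35.8 to 56.7 rpm in *Smarca4* knockdown. Its log2 difference was 1.09 (SE 0.182, adjusted p = 0.00195) and 0.75 (SE 0.182, adjusted p = 0.0278), and in *Smarca4* knockdown the call was lost for *Smc1b* without Smarca4.4, Smarca4.6, day 6 or day 7 (adjusted p = 0.127 to 0.25) and with the replicate block (adjusted p = 0.142). A filter at 10 rpm also ended this call.

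*Rec8*, the kleisin of meiotic cohesin (chromosome 14, 55618037 to 55625395), separated the knockdowns. *Rec8* was at 4.19, 16.2, 12.7 and 16.8 rpm in Nons on days 4 to 7. The values were 3.51, 18.5, 48.3 and 77.9 rpm with Smarcc1.6 and 4.53, 33.8, 76.4 and 82.0 rpm with Smarcc1.7. They were 4.05, 19.9, 18.4 and 18.6 rpm with Smarca4.4 and 4.28, 40.3, 22.2 and 24.2 rpm with Smarca4.6. On day 4 the 5 libraries lay within 3.51 to 4.53 rpm, and on days 6 and 7 the *Smarcc1* hairpins lay above all other libraries of their day. The log2 difference from Nons was 1.27 (SE 0.22, adjusted p = 0.00248) in *Smarcc1* knockdown and 0.45 (SE 0.22, adjusted p = 0.284) in *Smarca4* knockdown. The call in *Smarcc1* knockdown was lost for *Rec8* without day 6 or day 7 (adjusted p = 0.0542 to 0.0557).

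*Hormad1*, a HORMA domain protein of unsynapsed axes (chromosome 3, 95559677 to 95587671), was lower on day 7 than on day 4 in each series, and most so in Nons. In Nons, *Hormad1* was measured at 140.4, 64.0, 16.6 and 5.01 rpm on days 4, 5, 6 and 7. *Smarcc1* knockdown gave 169, 165, 56.1 and 32.9 rpm with Smarcc1.6 and 174, 73.0, 48.9 and 28.4 rpm with Smarcc1.7. *Smarca4* knockdown gave 160.5, 76.1, 21.5 and 14.6 rpm with Smarca4.4 and 188, 99.0, 40.5 and 20.6 rpm with Smarca4.6. All 16 knockdown libraries lay above same-day Nons, by 1.14 times with Smarca4.4 on day 4 and 6.57 times with Smarcc1.6 on day 7. The log2 difference was 1.33 (SE 0.22, adjusted p = 0.0018) in *Smarcc1* knockdown and 0.84 (SE 0.22, adjusted p = 0.0383) in *Smarca4* knockdown. Its relative *Hormad2* was also above same-day Nons in all 16 libraries, at 2.93 to 17.9 rpm in Nons and 7.69 to 22.8 rpm after knockdown, with a log2 difference of 0.99 (SE 0.154, adjusted p = 0.00116) and 0.96 (SE 0.154, adjusted p = 0.0027). *Sycp1*, the transverse filament protein of the synaptonemal complex, was at 82.0, 36.9, 14.4 and 9.43 rpm in Nons on days 4 to 7, and its log2 difference was 0.85 (SE 0.214, adjusted p = 0.0229) in *Smarcc1* knockdown and 0.51 (SE 0.214, adjusted p = 0.206) in *Smarca4* knockdown. The axis proteins *Sycp2* and *Sycp3* were not called in either knockdown, with log2 differences of 0.65 and 0.48 for *Sycp2* and 0.29 and 0.31 for *Sycp3*. *Sycp3* shares 660 of its 1264 annotated exon bases with *Chpt1* on the opposite strand, and since use of strand in the counting is not given in the sources used here, its reads are uncertain. Calls missed the threshold in *Smarcc1* knockdown for *Hormad1* without day 7 (adjusted p = 0.064) and *Sycp1* without Smarcc1.6, Smarcc1.7, day 6 or day 7 (adjusted p = 0.0529 to 0.143), and in *Smarca4* knockdown for *Hormad1* without Smarca4.4, Smarca4.6, day 5, day 6 or day 7 (adjusted p = 0.0506 to 0.385) and *Hormad2* without Smarca4.6 (adjusted p = 0.0559). The replicate block ended the calls of *Sycp1* (adjusted p = 0.156) in *Smarcc1* knockdown and *Hormad1* (adjusted p = 0.159) in *Smarca4* knockdown. Quantile normalization ended both of these calls too. The *Hormad1* call in *Smarca4* knockdown was further lost with a filter at 10 rpm, median centring, limma-voom and an additive model, and held in 8 of 19 alternatives.

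None of the 3 tested genes of meiotic recombination was called in either knockdown by limma or limma-voom, and 2 and 1 passed an unadjusted p under 0.05. Of all tested genes 7.54% and 4.75% were called higher, and 22.8% and 19.4% passed the unadjusted p in either direction. With 3 genes the absence of a call does not set this role apart. *Dmc1*, the meiotic recombinase (chromosome 15, 79561500 to 79605084), ranged from 17.2 to 35.9 rpm in Nons, 22.2 to 44.7 rpm in *Smarcc1* knockdown and 19.3 to 41.4 rpm in *Smarca4* knockdown. It lay above same-day Nons in 8 of 8 *Smarcc1* knockdown libraries, but its log2 difference of 0.33 (SE 0.115, adjusted p = 0.0897) did not pass the threshold, nor did that in *Smarca4* knockdown, 0.17 (SE 0.115, adjusted p = 0.462). For *Msh5*, a MutS homologue of crossover formation, the log2 difference was 0.26 (SE 0.308, adjusted p = 0.662) and 0.59 (SE 0.308, adjusted p = 0.324), and for *Tex11*, an X-linked crossover factor, it was 0.53 (SE 0.186, adjusted p = 0.0967) and 0.44 (SE 0.186, adjusted p = 0.209). The 3 other genes of this role, *Spo11*, *Msh4* and *Mei1*, did not pass the filter.

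In the piRNA pathway 6 of the 11 tested genes were called higher in *Smarcc1* knockdown and 7 in *Smarca4* knockdown, against 7.54% and 4.75% of all tested genes. *Piwil2*, a PIWI protein that binds piRNAs in fetal and adult germ cells (chromosome 14, 70372480 to 70429094, minus strand), was above same-day Nons in all 16 libraries. On days 4, 5, 6 and 7, Nons gave 88.6, 34.3, 17.3 and 18.6 rpm. With Smarcc1.6 it was at 159, 52.8, 33.0 and 57.5 rpm and with Smarcc1.7 at 137, 60.5, 59.0 and 59.2 rpm. With Smarca4.4 it was at 132, 59.7, 49.8 and 59.4 rpm and with Smarca4.6 at 124, 42.6, 43.6 and 75.4 rpm. Each knockdown library was at least 1.24 times Nons of its day. *Piwil2* differed by a log2 of 1.11 (SE 0.159, adjusted p = 0.000684) in *Smarcc1* knockdown and 1.09 (SE 0.159, adjusted p = 0.00146) in *Smarca4* knockdown, and both calls held in each of the 19 alternatives run.

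*Mael*, a nuage protein of the piRNA pathway (chromosome 1, 166201385 to 166238744), was likewise above Nons in each of the 16 libraries. The Nons series held 37.5, 56.0, 55.5 and 34.6 rpm of *Mael* from day 4 to day 7. Smarcc1.6 gave 61.7, 112, 104 and 83.8 rpm and Smarcc1.7 51.7, 63.2, 69.2 and 71.0 rpm. Smarca4.4 gave 55.2, 106, 94.3 and 121 rpm and Smarca4.6 66.5, 124, 163 and 116 rpm. Smarcc1.7 was the lowest of the 4 hairpins on each day, and Nons was lower still. *Mael* differed from Nons by a log2 of 0.74 (SE 0.189, adjusted p = 0.0245) in *Smarcc1* knockdown and 1.17 (SE 0.189, adjusted p = 0.00297) in *Smarca4* knockdown. *Fkbp6*, a cochaperone of piRNA loading, fell over the days and was higher after either knockdown. *Fkbp6* was at 46.8, 25.8, 7.25 and 4.42 rpm in Nons on days 4 to 7. The values were 77.7, 64.9, 20.4 and 19.0 rpm with Smarcc1.6 and 67.8, 43.8, 18.8 and 18.3 rpm with Smarcc1.7. They were 64.8, 39.0, 13.1 and 14.2 rpm with Smarca4.4 and 57.3, 45.5, 21.8 and 17.1 rpm with Smarca4.6. The 16 knockdown libraries all lay above same-day Nons, and the log2 difference was 1.30 (SE 0.157, adjusted p = 0.00021) and 1.03 (SE 0.157, adjusted p = 0.00185), with both calls held in each of the 19 alternatives run.

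*Tdrd12*, a Tudor protein of piRNA production (chromosome 7, 35493612 to 35537745), behaved like *Sohlh2* in starting below Nons. In Nons, *Tdrd12* was measured at 107, 85.6, 34.9 and 8.21 rpm on days 4, 5, 6 and 7. *Smarcc1* knockdown gave 70.6, 167, 103 and 40.5 rpm with Smarcc1.6 and 76.8, 96.1, 60.1 and 28.7 rpm with Smarcc1.7. *Smarca4* knockdown gave 77.3, 114, 56.7 and 29.1 rpm with Smarca4.4 and 96.2, 149, 96.8 and 35.3 rpm with Smarca4.6. All 4 hairpins lay below Nons on day 4 and above it from day 5. Averaged over days, the log2 difference was 0.81 (SE 0.208, adjusted p = 0.0244) and 0.84 (SE 0.208, adjusted p = 0.0306). *Tdrd9*, a Tudor helicase of transposon silencing, was low, at 0.354 to 1.64 rpm in Nons, 1.09 to 2.88 rpm in *Smarcc1* knockdown and 0.635 to 2.01 rpm in *Smarca4* knockdown. Its log2 difference was 1.53 (SE 0.267, adjusted p = 0.00259) and 1.24 (SE 0.267, adjusted p = 0.0152), and it was the 1 gene of the 31 that would not have passed the filter on its Nons values alone. *Tex15*, a protein of transposon silencing in male germ cells, was at 54.0, 46.1, 18.0 and 18.4 rpm in Nons over the days, with a log2 difference of 1.10 (SE 0.213, adjusted p = 0.00506) and 0.86 (SE 0.213, adjusted p = 0.0304). *Mov10l1*, the helicase that starts piRNA processing, ended at 15.3 rpm in Nons and 31.5 to 48.6 rpm in the knockdown series on day 7, with a log2 difference of 0.54 (SE 0.182, adjusted p = 0.0864) in *Smarcc1* and 0.75 (SE 0.182, adjusted p = 0.0282) in *Smarca4* knockdown.

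The other piRNA pathway genes were not called in either knockdown. The PIWI protein *Piwil4* had log2 differences of -0.23 and -0.48, the only negative values among the 31 genes, the mitochondrial anchor *Asz1* 0.35 and 0.34, and the Tudor proteins *Tdrd1* 0.02 and 0.25 and *Tdrd5* 0.07 and 0.13. *Piwil4* and *Tdrd5* share 137 and 176 exon bases with other annotated genes, which makes their reads uncertain. In the piRNA pathway, calls missed the threshold in *Smarcc1* knockdown for *Mael* without Smarcc1.6, Smarca4.4, Smarca4.6, day 6 or day 7 (adjusted p = 0.0621 to 0.173), *Tdrd12* without Smarcc1.6, Smarca4.4, Smarca4.6, day 6 or day 7 (adjusted p = 0.0674 to 0.512) and *Tex15* without day 7 (adjusted p = 0.0523). In *Smarca4* knockdown they did for *Mael* without Smarca4.6 (adjusted p = 0.0798), *Tdrd12* without Smarca4.4, Smarca4.6, day 5, day 6 or day 7 (adjusted p = 0.0534 to 0.43), *Tdrd9* without Smarcc1.6, Smarca4.4, Smarca4.6, day 5, day 6 or day 7 (adjusted p = 0.0509 to 0.112), *Tex15* without Smarcc1.6, Smarcc1.7, Smarca4.4, day 6 or day 7 (adjusted p = 0.0602 to 0.225) and *Mov10l1* without Smarca4.4, Smarca4.6, day 6 or day 7 (adjusted p = 0.111 to 0.297). Calls lost with the replicate block were those of *Mael* (adjusted p = 0.0921), *Tdrd12* (adjusted p = 0.0862) and *Tex15* (adjusted p = 0.0521) in *Smarcc1* knockdown and of *Tdrd12* (adjusted p = 0.119), *Tdrd9* (adjusted p = 0.13), *Tex15* (adjusted p = 0.2) and *Mov10l1* (adjusted p = 0.168) in *Smarca4* knockdown. Quantile normalization ended the calls of *Mael* and *Tdrd12* in *Smarcc1* and of *Tdrd12*, *Tdrd9* and *Mov10l1* in *Smarca4* knockdown. Median centring ended those of *Mael* in *Smarcc1* and of *Tdrd12* in both knockdowns. An additive model ended both calls of *Tdrd12*. A filter at 10 rpm ended the *Smarca4* knockdown calls of *Tdrd12*, *Tex15* and *Mov10l1*.

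**Figure D4:**
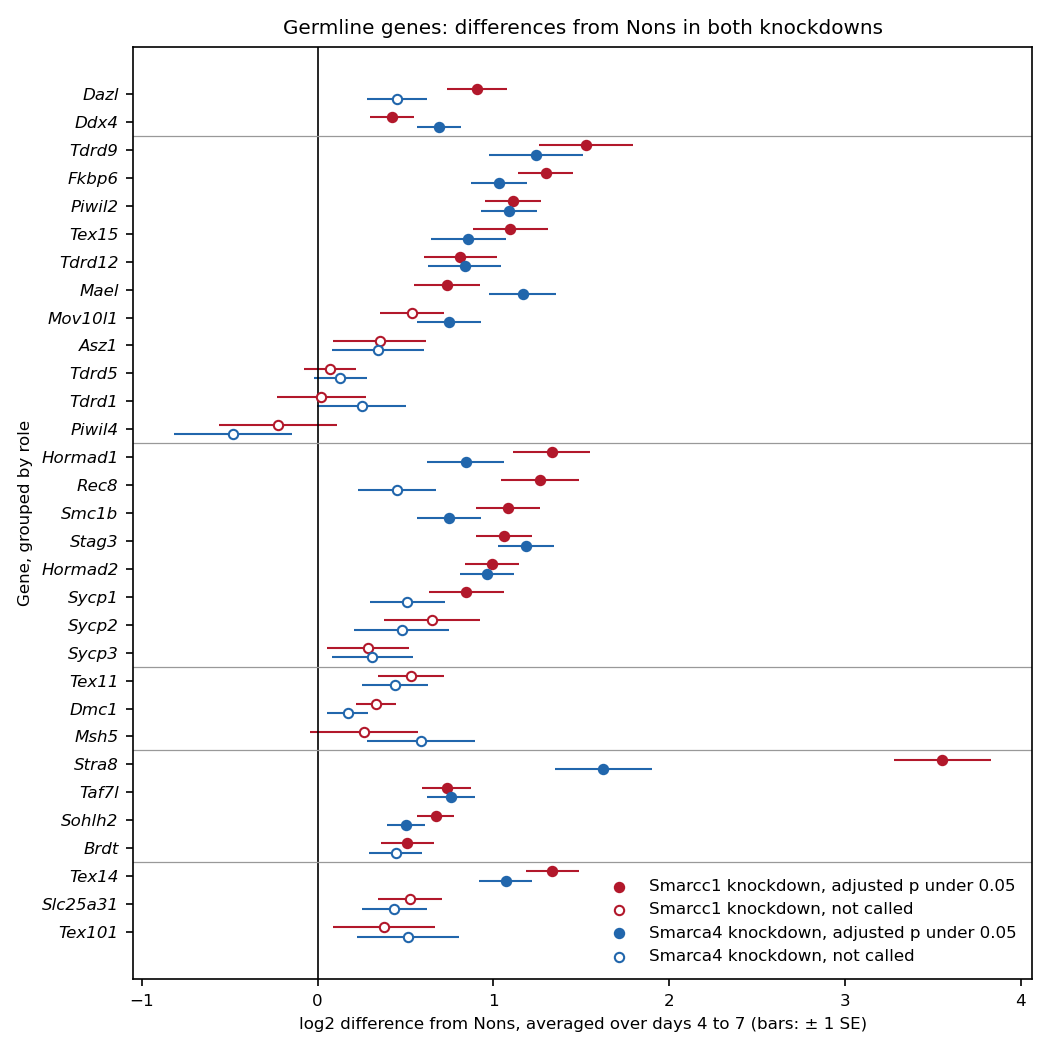
Log2 difference from Nons averaged over days 4 to 7 (horizontal axis, bars ± 1 SE) for the 31 tested germline genes, grouped by role, in *Smarcc1* (red) and *Smarca4* (blue) knockdown. Filled symbols passed an adjusted p of 0.05, 19 genes in *Smarcc1* and 16 in *Smarca4* knockdown, all of them above 0, and both colours use the same 4 Nons libraries.

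The RNA-binding proteins that mark committed germ cells were both called in *Smarcc1* knockdown, where 7.54% of all tested genes were called higher. *Dazl*, a translational regulator of germ cells (chromosome 17, 50279394 to 50293599), was highest on day 4 in all 5 series. On days 4, 5, 6 and 7, Nons gave 336, 52.5, 19.0 and 19.9 rpm. With Smarcc1.6 it was at 616, 117, 32.9 and 54.6 rpm and with Smarcc1.7 at 547, 54.4, 31.4 and 56.4 rpm. With Smarca4.4 it was at 498, 49.5, 23.1 and 40.9 rpm and with Smarca4.6 at 527, 37.9, 24.3 and 47.5 rpm. All 8 *Smarcc1* knockdown libraries lay above same-day Nons, whereas both *Smarca4* hairpins lay below it on day 5. The log2 difference from Nons was 0.91 (SE 0.171, adjusted p = 0.00415) in *Smarcc1* knockdown and 0.45 (SE 0.171, adjusted p = 0.157) in *Smarca4* knockdown. *Ddx4*, the Vasa helicase (chromosome 13, 112598333 to 112652310), was not called between day 4 and day 7. The Nons series held 62.8, 66.7, 56.7 and 63.4 rpm of *Ddx4* from day 4 to day 7. Smarcc1.6 gave 110.3, 78.8, 80.0 and 93.3 rpm and Smarcc1.7 101, 53.6, 76.6 and 88.9 rpm. Smarca4.4 gave 119, 82.0, 89.1 and 113 rpm and Smarca4.6 115, 67.3, 109 and 126 rpm. Nons ranged from 56.7 to 66.7 rpm, and Smarcc1.7 on day 5 was the single knockdown library below Nons of its day. Its log2 difference was 0.42 (SE 0.123, adjusted p = 0.0449) and 0.69 (SE 0.123, adjusted p = 0.00525). Calls missed the threshold in *Smarcc1* knockdown for *Dazl* without day 7 (adjusted p = 0.0594) and *Ddx4* without Smarcc1.6, Smarcc1.7, Smarca4.4, Smarca4.6, day 4, day 6 or day 7 (adjusted p = 0.0559 to 0.206), and in *Smarca4* knockdown for *Ddx4* without Smarca4.4 or Smarca4.6 (adjusted p = 0.0579 to 0.081). In *Smarcc1* knockdown the call of *Ddx4* (adjusted p = 0.204) was also lost with the replicate block. It was lost too without a filter, with a filter at 10 rpm, with median centring and with quantile normalization.

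Of the remaining genes, *Tex14*, a protein of germ cell intercellular bridges (chromosome 11, 87405065 to 87555823), was above same-day Nons in all 16 libraries. *Tex14* was at 27.7, 8.25, 2.54 and 5.12 rpm in Nons on days 4 to 7. The values were 35.5, 13.2, 11.8 and 15.3 rpm with Smarcc1.6 and 35.3, 20.9, 15.2 and 15.2 rpm with Smarcc1.7. They were 39.9, 18.6, 9.44 and 10.2 rpm with Smarca4.4 and 39.2, 15.5, 7.12 and 10.9 rpm with Smarca4.6. The widest ratio was on day 6, where Nons was lowest. The log2 difference was 1.34 (SE 0.15, adjusted p = 0.000124) in *Smarcc1* knockdown and 1.07 (SE 0.15, adjusted p = 0.00116) in *Smarca4* knockdown, and both calls held in each of the 19 alternatives run. The germ cell ADP/ATP carrier *Slc25a31* (log2 difference 0.53 and 0.44) and the surface glycoprotein *Tex101* (0.38 and 0.52) were not called.

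A second count used no model. In *Smarcc1* knockdown 13 of the 31 tested genes lay above same-day Nons in 8 of 8 libraries, where 8.69% of all tested genes did, and in *Smarca4* knockdown 12 of 31 did, where 9.85% of all tested genes did. None of the 37 genes lay below Nons in all 8 libraries of either knockdown. The share of all tested genes that did was not counted, so this count has no background to be read against.

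The knockdowns were compared with each other without Nons. Of the 31 genes, *Stra8* and *Rec8* were higher in *Smarcc1* than in *Smarca4* knockdown, and none was called lower (at an unadjusted p under 0.05, 6 higher and 2 lower, where 16.1% of all tested genes passed in either direction). The log2 difference between knockdowns was 1.93 (SE 0.226, adjusted p = 0.000565) for *Stra8* and 0.81 (SE 0.179, adjusted p = 0.0232) for *Rec8*. Among all tested genes 2.55% were called higher and 1.54% lower in this comparison. The *Rec8* call was lost without day 6 or day 7 and without Smarcc1.6, Smarca4.4 or Smarca4.6, where 1 gene was called, and with the replicate block (adjusted p = 0.112). Of all tested genes, 0.278% to 0.812% were called higher in those leave-outs and 0.579% with the block. The median log2 difference between knockdowns over the 31 genes was 0.09, and a p that misses the threshold does not show that the knockdowns acted alike on the other 29.

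Over differentiation the germline genes split. From day 4 to day 7, averaged over the 3 groups, 15 of the 31 genes fell and 10 rose, where 28.8% of all tested genes fell and 35.7% rose. The steepest falls were those of *Piwil4*, with a log2 difference of -4.25 (SE 0.365, adjusted p = 5.34e-07), and *Dazl*, -3.67 (SE 0.186, adjusted p = 6.43e-09). *Hormad1* fell by 3.54 on the log2 scale, *Sycp1* by 2.83, *Fkbp6* by 2.44 and *Tdrd12* by 2.08. The falls of *Tex11*, *Tex14*, *Tex15*, *Tdrd9*, *Piwil2*, *Asz1*, *Hormad2*, *Slc25a31* and *Sohlh2* ranged from -0.74 to -1.86. In 14 of the 15 the direction was the same in all 5 series, and *Tdrd9* was higher on day 7 with Smarcc1.7. With a hairpin left out, 22 to 25 genes in all were called. Of all tested genes 31.8% to 34.0% were then called higher and 25.1% to 27.4% lower.

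The genes that rose were led by *Msh5*. In Nons, *Msh5* was measured at 0.546, 1.22, 4.77 and 6.71 rpm on days 4, 5, 6 and 7. *Smarcc1* knockdown gave 0.228, 1.48, 5.29 and 9.97 rpm with Smarcc1.6 and 0.453, 1.99, 9.39 and 12.9 rpm with Smarcc1.7. *Smarca4* knockdown gave 0.342, 2.49, 5.70 and 7.68 rpm with Smarca4.4 and 0.934, 3.19, 8.58 and 12.5 rpm with Smarca4.6. It was higher on each later day in each series, and the log2 difference from day 4 to day 7 was 4.29 (SE 0.335, adjusted p = 2.26e-07). *Rec8* rose by 2.89 on the log2 scale, *Sycp3* by 2.40, *Tdrd5* by 1.46, *Stra8* by 1.17 and *Tdrd1* by 1.12. *Taf7l*, *Sycp2*, *Mov10l1* and *Brdt* rose by 0.55 to 0.81. In 8 of these 10 all 5 series moved the same way, and the Nons series was the exception for *Stra8* (-1.34) and *Sycp2* (-0.009). *Ddx4*, *Mael*, *Stag3*, *Smc1b*, *Tex101* and *Dmc1* were not called.

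The Nons series moved lowest for most of these genes. Its day 7 minus day 4 value was the lowest of the 5 series for 25 of the 31 genes (80.6%) and for 14 of the 15 that fell, where it was the lowest for 33.2% of all tested genes. The 15 were picked by a contrast that includes Nons, so a low Nons value helped a gene to be among them. The 33.2% covers all tested genes and not only those that fell. For *Stag3* it was -0.84 in Nons and above 0 in the 4 knockdown series, and for *Smc1b* -0.77 in Nons and likewise above 0 in the others. This comparison rests on a single Nons series, so that the spread between control cultures was not measured.

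**Figure D5:**
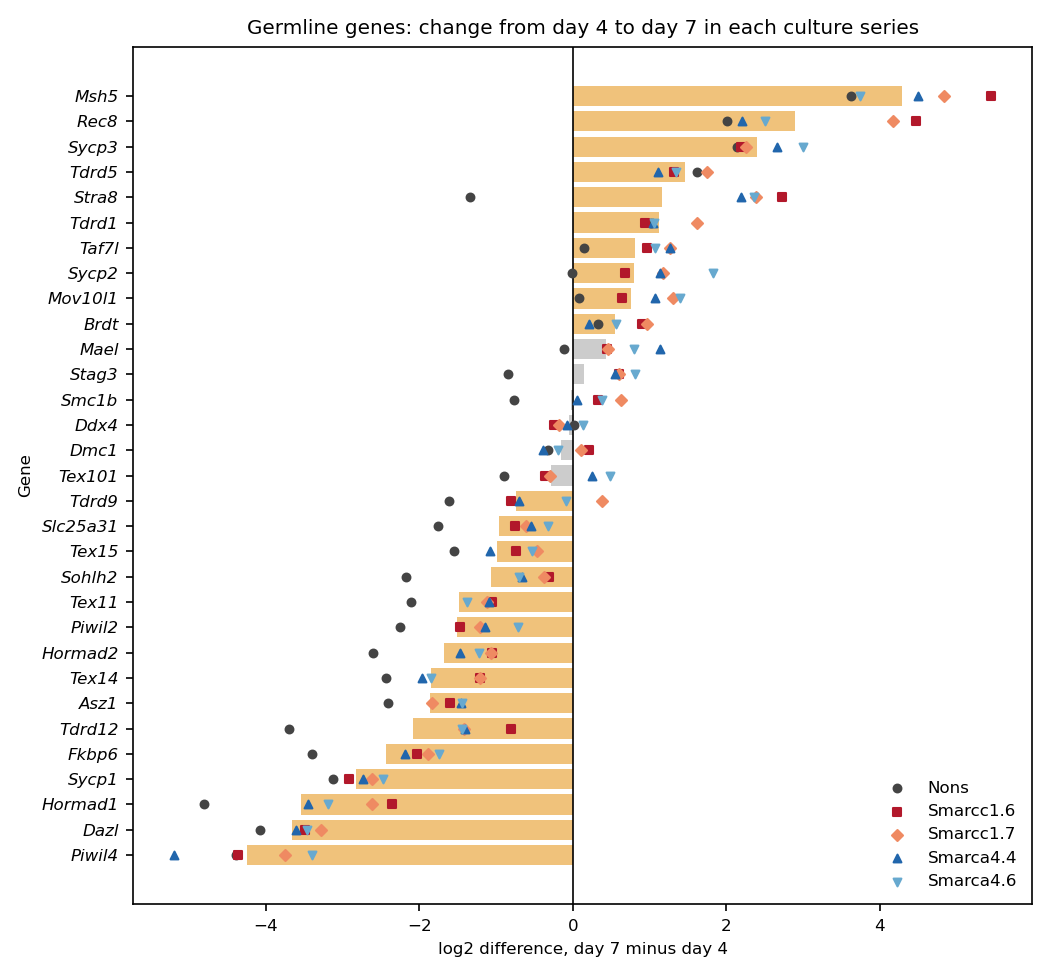
Log2 difference between day 7 and day 4 (horizontal axis) for the 31 tested germline genes, ordered by the mean of the 3 groups (bars, orange where called and grey where not), with 1 symbol for each of the 5 culture series. The Nons symbol is the leftmost for 25 of the 31 genes.

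The 6 genes under the filter were *Tdrd6*, *Spo11*, *Msh4*, *Mei1*, *Figla* and *Nobox*, with 66 to 432 reads each over the 20 libraries. *Msh4*, a partner of *Msh5*, had most reads, at 0.764, 0.557, 0.255 and 0.32 rpm in Nons, 0.712 to 2.62 rpm in *Smarcc1* knockdown and 0.764 to 1.84 rpm in *Smarca4* knockdown, and it lay above same-day Nons in all 16 libraries, although 125 of its exon bases are shared with a small RNA gene. With the lower filter its log2 difference was 1.44 (SE 0.313, adjusted p = 0.00845) and 1.52 (SE 0.313, adjusted p = 0.0116). *Figla*, an oocyte transcription factor, reached 1.21 rpm in Nons and 4.70 rpm with Smarca4.6 on day 6, with log2 differences of 0.17 and 0.34 that were not called. *Spo11*, the nuclease that starts meiotic recombination, stayed at or under 1.11 rpm in each library and was not called between knockdown and Nons. *Mei1*, a meiotic recombination factor, was called in *Smarcc1* knockdown with the lower filter (1.71, SE 0.495, adjusted p = 0.0387) and not in *Smarca4* knockdown (0.86, adjusted p = 0.362). *Nobox*, an oocyte homeobox factor, and *Tdrd6*, a Tudor protein of the chromatoid body, were not called in either. From day 4 to day 7, with the lower filter, *Figla*, *Nobox* and *Tdrd6* rose by 3.87, 3.39 and 2.19 on the log2 scale and *Spo11* fell by 2.19, each from few reads.

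Further genes of the same pathways were listed by function. Of 28 other meiosis genes 21 were in the table and 18 were tested, of which 5 were called higher in *Smarcc1* knockdown and 2 in *Smarca4* knockdown, with none lower and medians of 0.14 and 0.19, beside 7.54% and 4.75% called higher and a median of 0.06 over all tested genes. *Syce1*, of the synaptonemal complex, had log2 differences of 1.01 (SE 0.145, adjusted p = 0.000689) and 0.79 (SE 0.145, adjusted p = 0.00625), 4930432K21Rik, a recombination factor, 0.69 and 0.72, and *Hsf2bp* and *Ccnb1ip1*, both of recombination, were called in *Smarcc1* knockdown (0.78 and 0.98). Of 17 other genes of piRNA and transposon control 15 were tested, of which 6 and 5 were called higher and none lower, with medians of 0.51 and 0.57, beside the same shares of all tested genes. *Ctcfl*, the germ cell paralogue of CTCF, had log2 differences of 2.34 and 1.42 (SE 0.171), *Morc1*, a repressor of transposons, 1.81 and 1.39, *Dnmt3l*, a cofactor of DNA methyltransferases, 0.98 and 1.11, and *Piwil1* 1.44 and 0.76. Those called in this second list include general regulators beside piRNA proteins.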

How the data were processed

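Bulk mRNA libraries of differentiating male mESCs were analysed. Per the paper's methods, the authors sequenced single-end reads of 75 bp, removed adapters (trim_galore), mapped to mm10 (tophat or hisat2) and used the RNA-seq pipeline of SeqMonk, whose log2 rpm values they deposited. The submitters' processing notes name HISAT2 and bcl2fastq. The annotation and the use of strand are not given in the sources used here. A genotype label names the *Smarca4* libraries as a Smarcc knockdown, and the titles were followed. Of 24 samples, 4 Nons libraries had no column and were not analysed here. The lowest log2 value of each library stands for 0.9 of a read, and on that scale 100% of the values under 1000 reads were whole within 0.02 reads, which gave the library totals. limma-voom on these reads called 1458 and 899 of all tested genes in *Smarcc1* and *Smarca4* knockdown, where the main test called 1412 and 892.

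Germline genes and other lists were chosen with earlier results of these data known. limma 3.58.1 (lmFit, eBayes with trend) in R 4.3.3 was fitted to the 13296 genes whose log2 rpm averaged 0 or more, with 12 means of group and day and Benjamini-Hochberg adjustment over all of them. The spread (8 residual degrees of freedom) is that between the hairpins of a knockdown on the same day, in transductions of the same line. This fit treats the 4 days of a series as independent, which the replicate block does not. The single Nons series adds nothing to the spread, so p-values against Nons hold no spread between control cultures. The slope is the linear trend over days. All members are given by role, and from the other lists up to 4 genes with the lowest adjusted p. On simulated reads for *Smarcc1* knockdown against Nons, 88% of 200 genes with a log2 change of 1 were called, and 5 unchanged genes, over 13296 genes. The simulated libraries were independent, with no effect of series or hairpin, whereas values within a real series correlated by 0.217 in the replicate block. The simulation therefore does not give the number of false calls in these cultures. Alternatives were other filters, 1 added to rpm, a common lowest value, median centring, quantile normalization, limma-voom on recovered reads, a replicate block, an additive model and leaving out the shallowest library or each hairpin. Leaving out each day was chosen after seeing the data. Figures were drawn with matplotlib 3.10.9.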

Additional observations from a re-analysis of the deposited data

Results flagged for a closer look

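The effect of *Smarcc1* knockdown and that of *Smarca4* knockdown differed for 2 of the 31 tested germline genes in the direct limma comparison of the knockdowns. These were *Stra8* (log2 difference 1.93, SE 0.226, adjusted p = 0.000565), with each *Smarcc1* knockdown library above both *Smarca4* knockdown libraries of its day, and *Rec8* (0.81, SE 0.179, adjusted p = 0.0232). The effect of *Smarcc1* knockdown also differed between days, by its linear trend, for *Stra8* (1.29 per day on the log2 scale, adjusted p = 0.033) and *Sohlh2* (0.69 per day, adjusted p = 0.00553). None of the *Smarca4* knockdown trends of the 31 genes passed with limma or limma-voom, and 12 had an unadjusted p under 0.05. The groups hold 1 or 2 libraries per day, so that no single library could be set against the spread of its group.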

How the results depend on the processing

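Of 35 calls of germline genes against Nons, 12 held in all alternatives in which the gene was tested, 8 in *Smarcc1* knockdown (*Stag3*, *Smc1b*, *Tex14*, *Tdrd9*, *Piwil2*, *Hormad2*, *Stra8* and *Fkbp6*) and 4 in *Smarca4* knockdown (*Stag3*, *Tex14*, *Piwil2* and *Fkbp6*), and none of the 35 reversed. *Tdrd9* passed the main filter only through its knockdown libraries and was not tested with the 10 rpm filter. The 19 calls in *Smarcc1* knockdown became 12 without day 6 and 8 without day 7 (over all tested genes the share called higher went from 7.54% to 3.67% and 3.23%), and 15 to 16 with a hairpin left out (4.15% to 7.44% of all tested genes). The 16 calls in *Smarca4* knockdown became 10 with a filter at 10 rpm, which only 22 of the genes passed, 8 without day 6, 7 without day 7 and 5 to 15 with a hairpin left out, while the share of all tested genes went from 4.75% to 1.89%, 1.68%, 1.81% and, without Smarca4.6, 1.52%. For the 2 calls between knockdowns, 1 was left in the additive model, without day 6 and without day 7, and 1 to 2 with a hairpin left out. The share of all tested genes called higher went from 2.55% to 2.21%, 0.677% and 0.549%, and to 0.278% to 1.05% with a hairpin left out. The 2 calls of growth over days in *Smarcc1* knockdown became 1 with the 10 rpm filter, median centring, quantile normalization or limma-voom. The share of all tested genes called higher then went from 0.865% to 0.211%, 0.639%, 0.128% and 0.737%. With a hairpin left out neither call held, and that share fell as well. Median centring called 1 in *Smarca4* knockdown, where the main test called 0. Calls between days numbered 22 to 25 with a hairpin left out, where 31.8% to 34.0% of all tested genes were called higher and 25.1% to 27.4% lower. The cause of these changes was not tested.

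Where the replicate block was the culture series, 13 genes were called in *Smarcc1* and 8 in *Smarca4* knockdown, 1 between knockdowns, 26 between days, and 6 and 2 for growth. Over all tested genes 3.41% and 1.38% were then called higher in *Smarcc1* and *Smarca4* knockdown. Between knockdowns 0.579% of them were called higher and 0.211% lower, and between days 37.9% higher and 30.9% lower. For growth 1.93% and 0.301% were called higher in *Smarcc1* and *Smarca4* knockdown. Hairpin numbers name hairpins and pair no cultures across groups, and deviations of a series correlated between days by -0.206 to 0.823 over 12 pairs, 6 of them over 0.1. The decrease of *Smarca4* in its knockdown was -1.99 to -1.59 with a hairpin left out and missed the threshold without Smarca4.6 (adjusted p = 0.0685).

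Changes of sign concerned genes that were not called. *Tdrd1* in *Smarcc1* knockdown went to -0.035 with median centring, -0.13 with quantile normalization, -0.055, -0.037 and -0.14 without days 4, 6 and 7, and -0.11 to 0.16 with a hairpin left out. *Tdrd5* went to -0.035 with quantile normalization, -0.025 without day 4 and -0.065 to 0.21 with a hairpin left out. With a hairpin left out *Piwil4* spanned -0.58 to 0.13 and *Msh5* -0.064 to 0.59 in *Smarcc1* knockdown, and *Tdrd1* -0.037 to 0.54 and *Sycp3* -0.0039 to 0.63 in *Smarca4* knockdown. Over all tested genes, quantile normalization turned 1003 higher and 409 lower calls in *Smarcc1* knockdown into 600 and 518, and 631 and 261 in *Smarca4* knockdown into 351 and 313 (541 and 353 with median centring), with 14 and 12 germline genes called higher and 0 lower. Genes with few reads, such as *Msh4*, limit what depth can show.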

Other observations

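Genes of primordial germ cells, the first cells of the germline, were measured beside the germline genes. Their 7 members summed to 41.5 to 60.8 rpm in Nons, 83.2 to 151 rpm in *Smarcc1* knockdown and 70.9 to 127 rpm in *Smarca4* knockdown. Of the 5 that were tested, *Kit*, *Dppa3* and *Tfap2c* were called higher in *Smarcc1* knockdown (log2 difference 1.62, 1.46 and 0.91) and *Dppa3* and *Tfap2c* in *Smarca4* knockdown (1.13 and 0.84), where 7.54% and 4.75% of all tested genes were called higher. These genes also belong to other cells: *Dppa3* is expressed in naive pluripotent cells and *Kit* in several lineages.

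The 12 repressors of germline genes, subunits of PRC1.6 and DNA methyltransferases among them, were not called lower in either knockdown by limma. *Dnmt3a* (log2 difference 0.81, SE 0.165, adjusted p = 0.00672), *Max* (0.42, adjusted p = 0.0381) and *L3mbtl2* (0.49, adjusted p = 0.0481) were called higher in *Smarcc1* knockdown, and none of the 12 was called in *Smarca4* knockdown. From day 4 to day 7, 10 of the 12 fell, where 28.8% of all tested genes did. Of the 6 tested genes of the 2-cell-like state 1, *Zscan4d*, was called, in *Smarca4* knockdown (0.93, adjusted p = 0.0441).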
